A study of Mus musculus with 24 samples.

Results

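The genes described here are 10 genes of the Trem2 lipid-associated macrophage programme, found by matching Ensembl identifiers to mouse symbols among the 17301 genes measured. They are Trem2, Apoe, Gpnmb, Spp1, Fabp5, Lpl, Lgals3, Abca1, Abcg1 and Nr1h3. All 10 were found and all 10 were among the 12878 genes tested. RNA was sequenced from sorted myeloid cells of the mouse colon, as 24 libraries in 8 groups of 3. In each tissue the sort took F4/80hi MHCIIhi macrophages, F4/80hi MHCIIlow macrophages, Ly6Chi monocytes and neutrophils. The lamina propria (LP) cells came from wild-type mice, labelled strain C57/BL and healthy. The tumour cells came from colon adenomas of mice labelled APC/Min, which carry 1 germline mutant copy of Apc, the tumour suppressor whose loss starts intestinal adenomas. According to the study's methods the mice were adults of both sexes, each library held pooled cells of several mice, and the tumour mice drank dextran sodium sulphate (DSS), which inflames the colon. The methods describe DSS for control mice too, while the labels call the lamina propria healthy, so whether the lamina propria mice of these libraries had DSS is not settled. Strain genotype, DSS dose and cell isolation (EDTA and a 70/40% Percoll gradient for lamina propria, DNase I and 35% Percoll for tumours) all changed with tissue and cannot be told apart from it.

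Trem2 is a lipid-sensing receptor of macrophages that signals through the adaptor Tyrobp, and Apoe, the lipid carrier of lipoproteins, is one of its ligands. Macrophages that take up much lipid, in atherosclerotic plaques, fat, liver and tumours, typically express Trem2 with a set of lysosomal, lipid-binding and matrix genes: Gpnmb, a lysosomal membrane glycoprotein; Lgals3, the galectin that binds damaged lysosomes and cell surface sugars; Spp1, the secreted matrix protein osteopontin; Fabp5, a fatty acid chaperone; and Lpl, the lipase that frees fatty acids from lipoproteins. Nr1h3 encodes LXR alpha, a nuclear receptor for oxysterols, whose targets include Abca1 and Abcg1, the transporters that load cholesterol onto acceptor particles, and Apoe.

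The regions just before the start sites of Gpnmb, Lgals3, Spp1 and Abca1 are shown because expression of Gpnmb and Lgals3 fell together in tumour macrophages, Spp1 stood highest in the neutrophils of both tissues, and Abca1 is the textbook LXR target. Each is the 250 bases before the start site in RefSeq (GRCm38.p6), 5′ to 3′ on the gene's strand. Capitals mark matches, on either strand, to the AP-1 motif TGACTCA, the E-box CACGTG, the RUNX motif AACCACA and the spaced LXR repeat called DR4. These motifs were chosen with the sequences in view. Of the 10 genes, 7 had such a region in the tables used.

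Gpnmb: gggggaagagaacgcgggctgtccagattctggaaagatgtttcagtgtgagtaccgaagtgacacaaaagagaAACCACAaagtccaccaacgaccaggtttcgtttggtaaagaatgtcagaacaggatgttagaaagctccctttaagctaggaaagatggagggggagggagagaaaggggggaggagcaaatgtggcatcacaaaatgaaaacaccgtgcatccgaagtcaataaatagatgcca

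Lgals3: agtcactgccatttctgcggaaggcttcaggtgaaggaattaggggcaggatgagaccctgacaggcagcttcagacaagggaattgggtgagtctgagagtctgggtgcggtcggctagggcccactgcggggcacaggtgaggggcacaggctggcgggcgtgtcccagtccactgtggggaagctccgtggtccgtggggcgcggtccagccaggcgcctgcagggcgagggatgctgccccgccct

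Spp1: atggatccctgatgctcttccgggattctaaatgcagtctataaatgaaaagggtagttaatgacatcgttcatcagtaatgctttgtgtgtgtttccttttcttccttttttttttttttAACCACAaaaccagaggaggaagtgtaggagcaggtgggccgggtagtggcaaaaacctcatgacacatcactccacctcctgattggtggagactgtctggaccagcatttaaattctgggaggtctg

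Abca1: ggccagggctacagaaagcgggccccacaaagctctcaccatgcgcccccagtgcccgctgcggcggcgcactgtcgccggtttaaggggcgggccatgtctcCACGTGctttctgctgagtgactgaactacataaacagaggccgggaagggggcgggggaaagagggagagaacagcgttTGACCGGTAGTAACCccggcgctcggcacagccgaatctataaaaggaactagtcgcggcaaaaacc

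These lie at chr6:49036268-49036517 (+ strand), chr14:47373610-47373859 (+ strand), chr5:104434861-104435110 (+ strand) and chr4:53159896-53160145 (- strand), in the order printed. The Abca1 region held the DR4 repeat, which 0.621% of 32851 mouse regions of this length held, and an E-box, which 6.02% held. Those of Gpnmb and Spp1 each held 1 RUNX match, present in 4.40% of regions. None of the 4 regions held the AP-1 motif (4.46% of regions), and that of Lgals3 held none of the motifs. No 2 of these motifs overlapped. A match of letters is a description and not evidence that a factor binds.

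Levels are given as log2 RPKM, the log2 of reads scaled to the length of the gene and the size of the library, with the values of the 3 pools of a group in the order of their pool numbers (LP: MHCIIhi macrophages, monocytes and neutrophils III, IV and V, MHCIIlow macrophages II, III and IV; tumour: both macrophage subsets I, V and VII, monocytes and neutrophils I, II and V). Differences are log2 differences with standard errors from a limma fit over all 24 libraries, and a gene is said to have risen or fallen when its p adjusted over the 12878 genes tested was under 0.05. Each library is 1 pool, so p-values measure the spread between pools. In sorted bulk cells, fewer cells that express a gene and less of its RNA per cell cannot be told apart.

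The libraries held 12.8 to 41.7 M reads on genes. The 9 macrophage markers summed to between 4264 and 8114 RPKM in macrophages, 1008 to 1300 in monocytes and 601 to 793 in neutrophils. Neutrophil markers summed to 11427 to 29004 RPKM in neutrophils and at most 51.1 in macrophages and 148 in monocytes. MHC class II genes summed to 39016 to 45700 RPKM in lamina propria and 16706 to 41126 in tumour MHCIIhi macrophages. In MHCIIlow macrophages they summed to 878 to 3885 in lamina propria and 2121 to 9862 in tumours. The tissues thus differed in range within each subset, with overlap. The 5 monocyte markers reached 323 to 660 RPKM in monocytes against 2.35 to 19.1 in macrophages, but stood at 571 to 985 in neutrophils, so they did not separate those populations. Markers of other cells moved with tissue. Fibroblast markers (7 of 7 genes in the table) summed to 8.82 to 71.8 RPKM in lamina propria libraries against 0.134 to 1.65 in tumour libraries, and B and plasma cell markers (6 of 6) to 11.0 to 1300 against 0.192 to 69.2. Epithelial markers (10 of 10) ranged from 7.89 to 227 RPKM in lamina propria and from 10.2 to 371 in tumours. Dendritic cell markers summed to 44.3 to 65.3 RPKM in lamina propria MHCIIhi macrophages and 5.04 to 14.3 in those of tumours. Of the adipocyte list Plin4 and Cidec were in the table and summed to under 1 RPKM. What part these cells had in the tissue differences below was not tested.

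**Figure D1:**
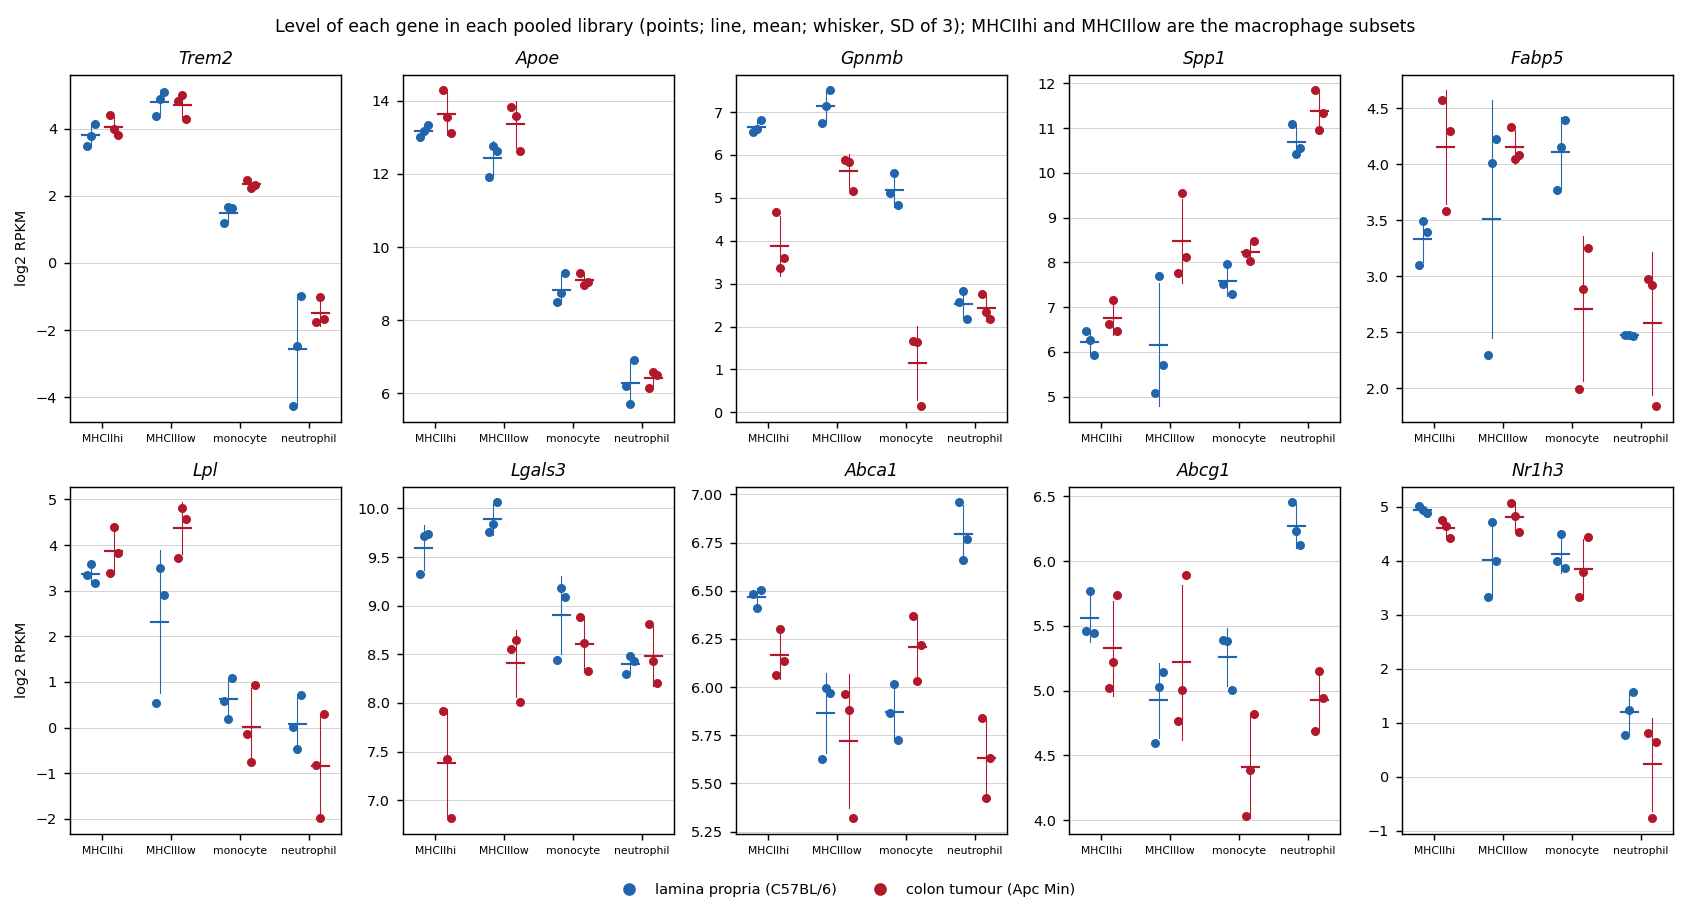
Level of each of the 10 genes (log2 RPKM, vertical axis, scaled per gene) in the 24 libraries, by population (horizontal axis) and tissue (blue, lamina propria; red, tumour). Points are pools, lines are means and whiskers SD (n = 3). Gpnmb and Lgals3 of both macrophage subsets stand lower in tumours, and Spp1 is highest in neutrophils.

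Trem2, the receptor that gives the programme its name, was a macrophage gene in both tissues and did not move detectably with the tumour in macrophages. In lamina propria it read 3.48, 3.77 and 4.14 in MHCIIhi and 4.39, 4.89 and 5.08 in MHCIIlow macrophages. In tumours it read 4.39, 3.98 and 3.81 in MHCIIhi and 4.83, 5.01 and 4.29 in MHCIIlow macrophages. The tissues overlapped within each subset. The log2 difference between tumour and lamina propria was 0.27 (SE 0.50, 95% interval -0.78 to 1.31) in MHCIIhi and -0.07 (interval -1.12 to 0.97) in MHCIIlow macrophages, with adjusted p = 0.785 and 0.954.

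Monocytes held less Trem2, at 1.19, 1.65 and 1.63 in lamina propria and 2.47, 2.24 and 2.31 in tumours. Every tumour monocyte pool was above every lamina propria pool, but the difference of 0.85 (SE 0.50) did not pass (adjusted p = 0.343). Neutrophils had almost none, between 6 and 54 reads a library in lamina propria (log2 RPKM -4.25, -2.46 and -0.97) and between 12 and 20 in tumours (-1.77, -1.01 and -1.65). Macrophages, as the mean of both subsets, exceeded monocytes 6.95-fold in lamina propria (log2 difference 2.80, SE 0.43, adjusted p = 5.47e-05) and 4.13-fold in tumours (2.04, adjusted p = 0.000832). In the order of the 8 groups the 4 macrophage groups overlapped with their neighbours, and each was above both monocyte groups.

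Apoe was among the most abundant transcripts of the macrophages. Its group mean ranked 4th of 17301 genes in lamina propria MHCIIhi macrophages, 2nd in both MHCIIlow groups and 1st in tumour MHCIIhi macrophages, and it made up 1.53 to 6.16% of the summed RPKM of a macrophage library. MHCIIhi macrophages read 13.02, 13.18 and 13.35 in lamina propria and 14.29, 13.56 and 13.11 in tumours. MHCIIlow macrophages read 11.92, 12.78 and 12.63 against 13.84, 13.59 and 12.64. The tissues overlapped in both subsets, and the highest tumour pool in each was pool I. In neither subset alone did the difference pass (0.47, adjusted p = 0.408; 0.91, adjusted p = 0.067), while in the mean of both Apoe rose by 0.69 (SE 0.25, 1.62-fold, adjusted p = 0.0368). This call was lost without any 1 of 6 of the 12 pools: in lamina propria, pool III or IV of the MHCIIhi or pool II of the MHCIIlow subset, and in tumours, pool I of the MHCIIhi or pool I or V of the MHCIIlow subset (adjusted p from 0.0611 to 0.107). It was also lost with libraries centred on their median and on the groups compared alone (adjusted p up to 0.224). The difference in MHCIIlow macrophages alone passed in 5 of 17 alternative runs, voom among them. Monocytes stood near 9 on this scale (8.83 ± 0.40 in lamina propria, 9.10 ± 0.17 in tumours; SD, n = 3) and neutrophils near 6 (6.27 ± 0.61 and 6.40 ± 0.23). Apoe in macrophages was 15.7-fold over monocytes in lamina propria and 21.3-fold in tumours (adjusted p = 6.01e-09 and 6.4e-10).

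Gpnmb and Lgals3 went the other way from Apoe: both fell in tumour macrophages, and in both subsets. Gpnmb read 6.53, 6.61 and 6.81 in lamina propria MHCIIhi macrophages and 4.67, 3.36 and 3.59 in those of tumours. It read 6.76, 7.14 and 7.50 against 5.89, 5.84 and 5.17 in MHCIIlow macrophages. No tumour pool reached the lowest lamina propria pool of its subset. Gpnmb fell by 2.78 (SE 0.37, to 0.146 of the lamina propria level, adjusted p = 1.65e-05) in MHCIIhi and by 1.5 (SE 0.37, to 0.353, adjusted p = 0.00486) in MHCIIlow macrophages.

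Lgals3 read 9.33, 9.72 and 9.74 in lamina propria MHCIIhi macrophages against 7.92, 7.42 and 6.82 in tumours. In MHCIIlow macrophages it read 9.75, 9.84 and 10.06 against 8.56, 8.65 and 8.01. As for Gpnmb, the tissues did not overlap in either subset. Lgals3 fell by 2.21 (SE 0.25, to 0.216, adjusted p = 3.35e-06) in MHCIIhi and by 1.48 (SE 0.25, to 0.358, adjusted p = 0.00023) in MHCIIlow macrophages. Both genes kept these calls in every alternative run. With fibroblast markers at 8.82 to 71.8 RPKM in lamina propria macrophages and 0.306 to 1.24 in tumour macrophages, and epithelial markers at 7.89 to 39.8 and 10.2 to 233, the part of RNA from these cells in the differences was not tested.

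In monocytes Gpnmb fell further and Lgals3 did not pass the test. Gpnmb read 5.12, 5.59 and 4.82 in lamina propria monocytes and 1.66, 1.64 and 0.15 in tumour monocytes, a fall of 4.03 (SE 0.37) to 0.0614 of the lamina propria level (adjusted p = 1.01e-06). Lgals3 read 8.44, 9.18 and 9.09 against 8.89, 8.62 and 8.33, with overlapping pools (difference -0.29, interval -0.82 to 0.24, adjusted p = 0.567). On the log2 RPKM scale tumour monocytes were the group with the least Gpnmb of all 8, below both neutrophil groups. That order depended on the scaling. Of a library's summed RPKM, Gpnmb made up 0.00035 to 0.00098% in tumour monocytes. This overlapped tumour neutrophils (0.00060 to 0.00083%) and lamina propria neutrophils (0.00079 to 0.00138%). In neutrophils neither gene differed detectably by tissue. Gpnmb read 2.58, 2.82 and 2.18 in lamina propria and 2.76, 2.34 and 2.17 in tumours (difference -0.10, interval -0.87 to 0.66), and Lgals3 differed by 0.08 (interval -0.45 to 0.61).

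By log2 RPKM Spp1 was most abundant in neutrophils, which in both tissues stood above every macrophage and monocyte pool. As a share of a library's summed RPKM, Spp1 made up 0.264 to 0.390% in lamina propria and 0.246 to 0.450% in tumour neutrophils. Tumour MHCIIlow macrophages ranged from 0.0768 to 0.269%, so on that scale they overlapped the neutrophils of both tissues. Neutrophils read 11.09, 10.43 and 10.56 in lamina propria and 11.84, 10.96 and 11.35 in tumours. Monocytes read 7.51, 7.97 and 7.29 against 8.20, 8.04 and 8.47. Neutrophils exceeded monocytes 8.58-fold in lamina propria and 8.86-fold in tumours (adjusted p = 2.34e-05 and 1.67e-05). The neutrophil pools of the tissues overlapped (difference 0.69, adjusted p = 0.303), while every tumour monocyte pool was above every lamina propria one without passing the test (0.65, adjusted p = 0.489).

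Among macrophages, Spp1 rose in the MHCIIlow subset of tumours. It read 5.08, 7.70 and 5.71 in lamina propria MHCIIlow macrophages and 7.76, 9.54 and 8.12 in those of tumours, so the lowest tumour pool was just above the highest lamina propria pool. The rise was 2.31 (SE 0.49, 4.96-fold, adjusted p = 0.00162). Fitted on those 6 libraries alone it did not pass (adjusted p = 0.113). MHCIIhi macrophages read 6.46, 6.26 and 5.93 against 6.62, 7.16 and 6.46, a difference of 0.53 (adjusted p = 0.521). Neutrophil markers summed to 23.3 to 31.9 RPKM in lamina propria and 32.8 to 43.7 in tumour MHCIIlow macrophages, against at least 11427 in neutrophils. Of the exon bases of Spp1, 18.8% lie also in the predicted gene Gm42793 on the same strand, so how reads on those bases were counted is uncertain.

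Lpl, the secreted lipase, followed the macrophages. MHCIIhi macrophages read 3.34, 3.59 and 3.17 in lamina propria and 3.38, 4.39 and 3.82 in tumours. MHCIIlow macrophages read 0.54, 3.50 and 2.91 against 3.73, 4.81 and 4.57. Lamina propria pool II of the MHCIIlow subset, at 0.54, was far under its other 2 pools. Lpl rose by 2.05 in tumour MHCIIlow macrophages (SE 0.64, 4.14-fold, adjusted p = 0.0237), and without that pool the difference was 1.16 (adjusted p = 0.179). The call was also lost without tumour pool V (adjusted p = 0.0932) or VII (0.0723) and on the 6 libraries alone (0.146). In the mean of both subsets Lpl rose by 1.27 (adjusted p = 0.035), a call lost on the groups compared alone (0.051) and without any 1 of 7 of the 12 pools: in lamina propria, pool III or V of the MHCIIhi or pool II of the MHCIIlow subset, and in tumours, pool V or VII of either subset. Without lamina propria pool II of the MHCIIlow subset it was 0.83 (adjusted p = 0.11). The same pool was the lowest of its group for Apoe, Gpnmb, Spp1, Fabp5, Abca1, Abcg1, Nr1h3, Trem2 and Lgals3 as well, and had the lowest sum of MHC class II RNA. Outside macrophages Lpl was low, from -1.98 to 1.08, and in tumours macrophages exceeded monocytes 17.1-fold (adjusted p = 5.75e-06).

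Fabp5 differed between cell types in ways that varied with the tissue. In tumours macrophages exceeded monocytes 2.72-fold (adjusted p = 0.00308), and in lamina propria neutrophils were below monocytes (0.322 of their level, adjusted p = 0.00235). Group means ran from 2.47 in lamina propria neutrophils to 4.16 in tumour MHCIIlow macrophages, and neighbours in that order of the 8 groups overlapped. In macrophages it read 3.10, 3.49 and 3.39 against 4.57, 3.58 and 4.30 (MHCIIhi, lamina propria and tumour) and 2.29, 4.02 and 4.23 against 4.33, 4.05 and 4.09 (MHCIIlow). The difference was 0.82 in MHCIIhi and 0.64 in MHCIIlow macrophages and did not pass (adjusted p = 0.184 and 0.294), although no MHCIIhi tumour pool was below a lamina propria one. In the mean of both subsets it was 0.73 and did not pass (adjusted p = 0.0587), but passed in 9 of 23 alternative runs, voom among them. Monocytes went the other way, with 3.77, 4.16 and 4.39 in lamina propria and 1.99, 2.88 and 3.25 in tumours, and Fabp5 fell by 1.40 (SE 0.41, to 0.38, adjusted p = 0.0373). That call was lost when any of 5 of the 6 monocyte pools was left out (adjusted p up to 0.191). Of the Fabp5 transcript sequence, 5.29% of its 51-base stretches recur in other genes, mostly in the predicted gene Gm6166, so some of its reads could be assigned elsewhere.

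Nr1h3, the LXR alpha gene, was expressed in macrophages and monocytes and was low in neutrophils. MHCIIhi macrophages read 5.01, 4.95 and 4.89 in lamina propria and 4.76, 4.65 and 4.43 in tumours, so every tumour pool was lower, but the difference of -0.34 did not pass (adjusted p = 0.607). MHCIIlow macrophages read 3.34, 4.72 and 4.01 against 5.07, 4.83 and 4.53 (difference 0.79, adjusted p = 0.142). That difference passed in 2 of 17 alternative runs, with voom and without lamina propria pool III of the subset. Neutrophils read 0.77, 1.25 and 1.57 in lamina propria and 0.81, -0.76 and 0.64 in tumours, 12 to 160 reads a library. Against monocytes Nr1h3 was lower in neutrophils in both tissues (log2 differences of -2.93 in lamina propria and -3.63 in tumours, adjusted p = 1.66e-06 and 7.85e-08).

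The cholesterol transporters Abca1 and Abcg1 had a narrow range in macrophages and moved mainly in neutrophils. Abca1 read 6.96, 6.66 and 6.77 in lamina propria neutrophils and 5.84, 5.42 and 5.63 in tumour neutrophils. Abcg1 read 6.45, 6.23 and 6.12 against 4.69, 5.16 and 4.95. Neither gene overlapped between tissues. Abca1 fell by 1.16 (SE 0.16, to 0.446, adjusted p = 1.63e-05) and Abcg1 by 1.34 (SE 0.26, to 0.395, adjusted p = 0.00052), in every alternative run. The median gene of all tested moved by -0.12 in this comparison, and by -0.59 with libraries scaled to their summed reads, the largest shift of any scaling for this comparison. On the log2 RPKM scale lamina propria neutrophils were the highest of the 8 groups for both genes, above every macrophage pool. That order depended on the scaling. Of a library's summed RPKM, Abca1 made up 0.0191 to 0.0222% in these neutrophils and 0.0273 to 0.0304% in lamina propria MHCIIhi macrophages. Abcg1 made up 0.0122 to 0.0157% and 0.0137 to 0.0175%. B and plasma cell markers summed to 358 to 1300 RPKM in lamina propria neutrophils and 0.66 to 20.1 in those of tumours. Dendritic cell markers summed to 75.6 to 147 against 2.45 to 18.3, and fibroblast markers to 22.7 to 42.9 against 1.56 to 1.65. Epithelial markers went the other way, 17.4 to 77.8 against 184 to 364. What part these cells had in the differences was not tested.

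In macrophages Abca1 read 6.48, 6.41 and 6.50 against 6.06, 6.30 and 6.13 in the MHCIIhi subset (lamina propria and tumour; difference -0.30, SE 0.16, adjusted p = 0.211). In the MHCIIlow subset it read 5.63, 6.0 and 5.97 against 5.96, 5.88 and 5.32 (difference -0.14, interval -0.47 to 0.19). Abcg1 differed by -0.23 (interval -0.77 to 0.30) and 0.29 (interval -0.24 to 0.83). In monocytes Abcg1 fell by 0.84 (5.39, 5.39 and 5.00 against 4.03, 4.39 and 4.82; SE 0.26, adjusted p = 0.0433), while Abca1 read 5.87, 6.01 and 5.72 against 6.37, 6.03 and 6.22 (0.34, adjusted p = 0.212). The Abcg1 call was lost without any one of 5 of the 6 monocyte pools (adjusted p up to 0.199), with quantile scaling (0.0878) and with libraries centred on their median (0.0758).

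**Figure D2:**
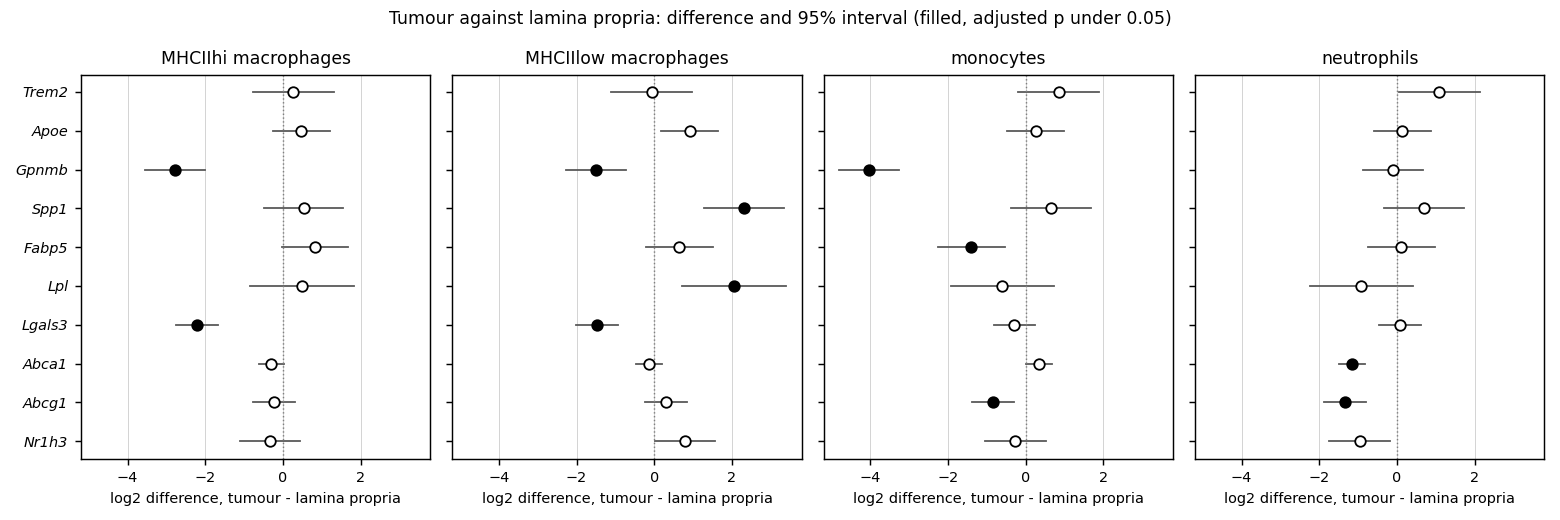
Log2 difference between tumour and lamina propria (horizontal axis) for each gene (vertical axis) in the 4 populations, with 95% intervals; filled points passed adjusted p under 0.05. Gpnmb lies left of 0 in both macrophage subsets and in monocytes, and Abca1 and Abcg1 in neutrophils, while Trem2 is open in all 4.

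Counted over the 10 genes, the tumour comparisons moved in no single direction. In MHCIIhi macrophages 2 genes fell (Gpnmb and Lgals3) and none rose, where 8.01% of all genes tested rose and 11.5% fell. In MHCIIlow macrophages 2 rose (Spp1 and Lpl) and 2 fell (Gpnmb and Lgals3), where 11.5% rose and 11.8% fell. In the mean of both subsets 3 rose (Apoe, Spp1 and Lpl, by 0.69, 1.42 and 1.27) and 2 fell (Gpnmb and Lgals3), where 16.3% rose and 17.6% fell. In monocytes 3 fell (Gpnmb, Fabp5 and Abcg1), where 4.86% of all genes rose and 4.43% fell. In neutrophils 2 fell (Abca1 and Abcg1), where 13.1% rose and 19% fell. The median log2 difference of the 10 genes was 0.16 in the mean of both macrophage subsets and -0.28 in monocytes, against 0.03 and 0.00 for all genes.

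Some of these tissue differences themselves differed between macrophages and monocytes. Fabp5 moved by 2.13 more in macrophages than in monocytes (SE 0.50, adjusted p = 0.00913) and Gpnmb by 1.88 more (SE 0.45, adjusted p = 0.00964), its fall being smaller there. Lgals3 moved by -1.55 relative to monocytes (SE 0.31, adjusted p = 0.00266). These are 2 higher and 1 lower of 10, where 3.55% of all genes were higher and 5.64% lower. Between the MHCIIlow and MHCIIhi subsets the tissue difference of none of the 10 genes passed the test with limma (1.13% of all genes were higher and 0.326% lower), although 3 had an unadjusted p under 0.05 in that test: Spp1 (difference 1.78, adjusted p = 0.255), Gpnmb (1.28, adjusted p = 0.28) and Nr1h3 (1.12, adjusted p = 0.376). The voom fit on recovered reads called 1 of 10.

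**Figure D3:**
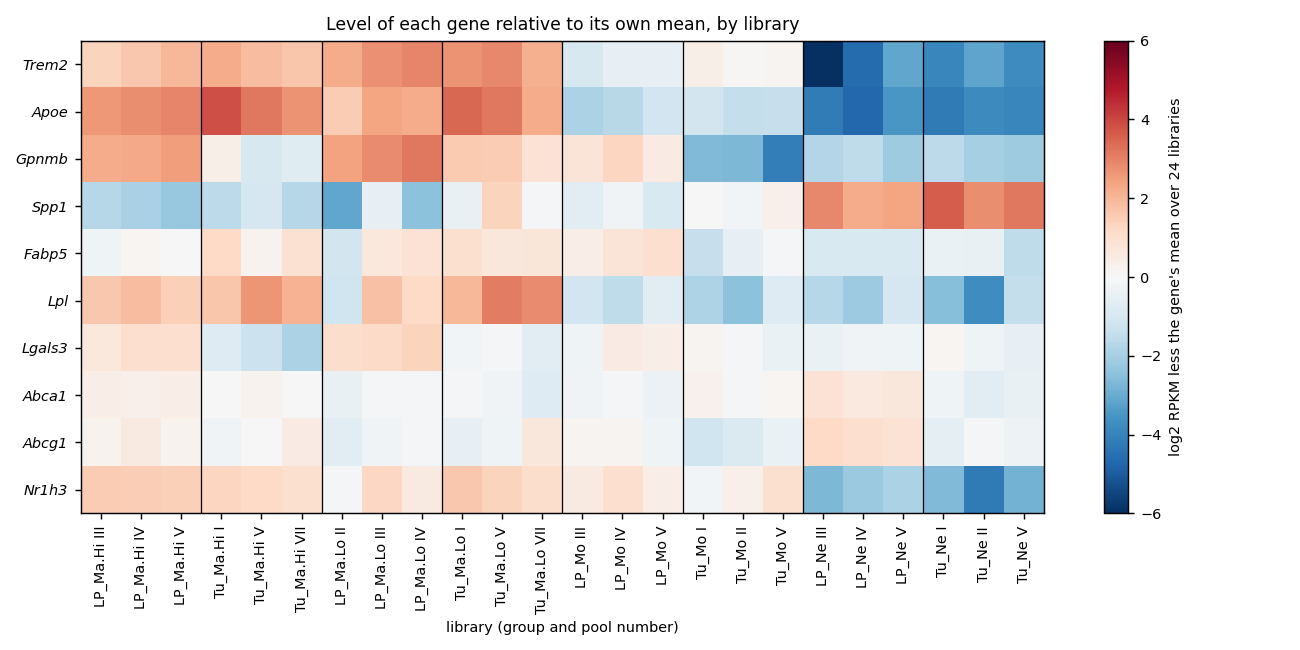
Level of each gene (rows) in each library (columns, by group and pool number) as log2 RPKM less the gene's mean over the 24 libraries. Trem2, Apoe, Lpl and Nr1h3 are high in most macrophage columns and low in neutrophil columns, and Spp1 is the reverse. Lamina propria pool II of the MHCIIlow macrophages is lower than the other pools of its group for Lpl and Nr1h3.

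The macrophage subsets differed in Gpnmb in tumours and in Abca1 in lamina propria. In tumours Gpnmb was higher in MHCIIlow than in MHCIIhi macrophages by 1.76 (SE 0.37, 3.39-fold, adjusted p = 0.0256), the 1 gene of 10 to pass, where 0.567% of all genes were higher and 0.567% lower. Lgals3 (1.02, 2.03-fold, adjusted p = 0.0554) and Spp1 (1.72, 3.30-fold, adjusted p = 0.0997) were higher in every MHCIIlow pool and did not pass. Both subsets carried the pool numbers I, V and VII. With the pool number as a fixed replicate block both genes passed (adjusted p = 0.00271 and 0.0337), as Lgals3 did with a random block (0.0373). The Gpnmb call was lost without pool V (adjusted p = 0.0716) or pool VII (0.096) of the MHCIIhi subset, without pool I (0.0602) or pool V (0.1) of the MHCIIlow subset, and on the 6 libraries alone (0.274). In lamina propria Abca1 was lower in MHCIIlow macrophages by 0.60 (log2 difference -0.60, SE 0.16, adjusted p = 0.023), again 1 of 10, where 2.13% of genes were higher and 5.57% lower. That call was lost without any 1 of 4 pools, pools III, IV and V of MHCIIhi and pool II of MHCIIlow macrophages (adjusted p from 0.0572 to 0.122), and with the pool number as a fixed replicate block (difference -0.50, adjusted p = 0.0683) or libraries scaled to their summed reads (-0.35, adjusted p = 0.134). Apoe (-0.74), Abcg1 (-0.63) and Nr1h3 (-0.93) were lower in every lamina propria MHCIIlow pool and did not pass either (adjusted p = 0.239, 0.156 and 0.151). Trem2 (0.99) and Lgals3 (0.29) were instead higher in every lamina propria MHCIIlow pool, and did not pass (adjusted p = 0.277 and 0.609).

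Against monocytes, macrophages of both tissues carried more of the programme. In lamina propria 5 genes were higher in macrophages (Trem2, Apoe, Gpnmb, Lpl and Lgals3, by 2.80, 3.98, 1.72, 2.22 and 0.84) and Spp1 was lower by 1.40 (log2 difference -1.40, adjusted p = 0.0167), where 12.5% of all genes were higher and 17% lower. In tumours 7 were higher (Trem2, Apoe, Gpnmb, Fabp5, Lpl, Abcg1 and Nr1h3, by 2.04, 4.41, 3.60, 1.44, 4.10, 0.86 and 0.86) and Lgals3 was lower (-0.72, adjusted p = 0.0144), where 16.8% were higher and 21.4% lower. Lgals3 was thus above monocytes in lamina propria and below them in tumours, though the lamina propria difference did not pass without monocyte pool III (adjusted p = 0.0721). The tumour difference of Lgals3 did not pass without monocyte pool I (adjusted p = 0.0949) or on the groups compared alone (0.0659), and shrank to -0.23 with quantile scaling (adjusted p = 0.332) and to -0.37 with libraries scaled to their summed reads (0.128). Spp1 in lamina propria did not pass without monocyte pool IV (adjusted p = 0.089). Nr1h3 in tumours did not pass without any 1 of 6 of the 9 pools (pools I and V of either macrophage subset, pools I and II of monocytes; adjusted p from 0.0625 to 0.236), with the fixed replicate block (0.124) or with libraries centred on their median (0.0969). With the fixed replicate block Abca1 was higher in lamina propria macrophages than in monocytes (0.35, adjusted p = 0.0414).

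Neutrophils differed from monocytes in 8 of the 10 genes in lamina propria and in 6 in tumours, in comparisons where most of all genes tested also differed. In lamina propria Spp1, Abca1 and Abcg1 were higher (3.10, 0.93 and 1.01) and Trem2, Apoe, Gpnmb, Fabp5 and Nr1h3 lower (-4.05, -2.57, -2.65, -1.63 and -2.93), where 24.1% of all genes were higher and 30.4% lower. In tumours Spp1 (3.15) and Gpnmb (1.27) were higher and Trem2 (-3.82), Apoe (-2.69), Abca1 (-0.57) and Nr1h3 (-3.63) lower, where 23.3% were higher and 34.9% lower. The median gene lay at -0.24 and -0.36 in these comparisons, and at -1.07 and -1.49 with libraries scaled to their summed reads. With that scaling the lamina propria differences of Abca1 (0.10) and Abcg1 (0.18) and the tumour difference of Gpnmb (0.14) did not pass, and with quantile scaling those of Abca1 (0.21) and Abcg1 (0.46) in lamina propria did not pass either. The tumour difference of Abca1 was -0.13 with libraries centred on their median (adjusted p = 0.532). That of Gpnmb also did not pass without tumour monocyte pool V (0.77, adjusted p = 0.0579), with voom (0.106) or on the groups compared alone (0.0787). With the fixed replicate block Lgals3 in lamina propria (-0.50) and Lpl (-0.85) and Abcg1 (0.52) in tumours passed too (adjusted p = 0.00949, 0.0182 and 0.00686).

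The genes whose levels across the 24 libraries were most like that of Trem2 by Pearson correlation were Set (r = 0.975), Dpysl2 (0.972), Rgs10 (0.967), Alg5 (0.967) and Mrps17 (0.965). For Gpnmb they were Mir511 (r = 0.936), Gpr137b (0.905), Ctsl (0.875), Hyal2 (0.875) and Klhl8 (0.869), and for Spp1 Gpsm3 (r = 0.959), Pbxip1 (0.949), Retnlg (0.947), Dmxl2 (0.943) and Glrx (0.938). Mir511 stood at -3.16 with an SD of 0 in tumour monocytes and both neutrophil groups, the floor without reads, so its r rests in part on floor values. Retnlg is a neutrophil gene and was on the neutrophil marker list. These correlations describe a pattern set largely by the 4 cell types, which the libraries of a group share.

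The partners of these genes moved in their own ways in tumour macrophages (mean of both subsets). Tyrobp, the adaptor through which Trem2 signals, rose by 1.09 (adjusted p = 0.00054), and by 1.08 in MHCIIhi and 1.10 in MHCIIlow macrophages, where Trem2 itself did not pass. Of the 12 genes tested of its adaptor, signalling and TREM family list, 8 rose and none fell, where 16.3% of all genes tested rose and 17.6% fell, with a median of 1.02 against 0.03 for all genes. By subset, 4 rose and 1 fell in MHCIIhi macrophages (median 0.41), where 8.01% of all genes rose and 11.5% fell. In MHCIIlow macrophages 8 rose and none fell (median 1.10), where 11.5% rose and 11.8% fell. The largest rises in the mean of both subsets were those of Treml4 (1.72) and Trem3 (1.63), both of the TREM family. Cd44, a receptor for osteopontin and hyaluronan, fell by 1.89 (adjusted p = 3.8e-09). Of 8 tested osteopontin receptor genes 2 rose, Itgb5 (1.58) and Itga4 (1.10), and 3 fell, with Itgb3 (-4.21, under 1 RPKM in each macrophage group and with no reads in at least 1 tumour library) and Cd44 leading. In monocytes Cd44 differed by 0.20 (adjusted p = 0.63).

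Rxra, the partner with which LXR binds DNA, rose by 0.84 (adjusted p = 0.0041) and Nr1h2, which encodes LXR beta, differed by 0.06 (adjusted p = 0.75). Of the 7 tested receptor and corepressor genes 3 rose, led by Rxra and Rxrb (0.76), and Pparg fell by 2.19, where 16.3% of all genes rose and 17.6% fell. Of 10 other tested LXR targets, against the same shares of all genes, 4 rose, led by Scd2 (2.86), a fatty acid desaturase, and Mertk (2.23), a receptor for the uptake of dead cells, and 1 fell, Pltp (-2.06), the phospholipid transfer protein. Scd2 and Mertk rose and Pltp fell also in monocytes (2.38, 1.66 and -1.38) and in neutrophils (2.51, 2.31 and -2.67).

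Of 25 other tested genes usual in lipid-associated macrophage signatures, 8 rose and 8 fell, with a median of -0.02 against 0.03 for all genes. For this and the next lists the shares over all genes were 16.3% higher and 17.6% lower. Mmp12, the macrophage elastase, rose by 3.36 and Csf1 by 2.52, while Cd36, a fatty acid and oxidised lipoprotein receptor, fell by 2.97 and Vat1 by 1.80. Cd36 also led the falls among 16 tested genes of lipid uptake, storage and release, of which 6 rose and 4 fell. The largest rises there were those of Dgat2 (0.76), which makes triglyceride, and the scavenger receptor gene Msr1 (0.64). Of 4 tested genes whose products bind or regulate Lpl, 2 rose, Apoc2 (1.67), the cofactor of the lipase, and Lmf1 (0.92), which helps it fold. Gpihbp1 was not in the table. Of the 4 MiT/TFE transcription factors, regulators of lysosomal genes, Mitf rose by 0.69 and Tfe3 fell by 0.55.

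**Figure D4:**
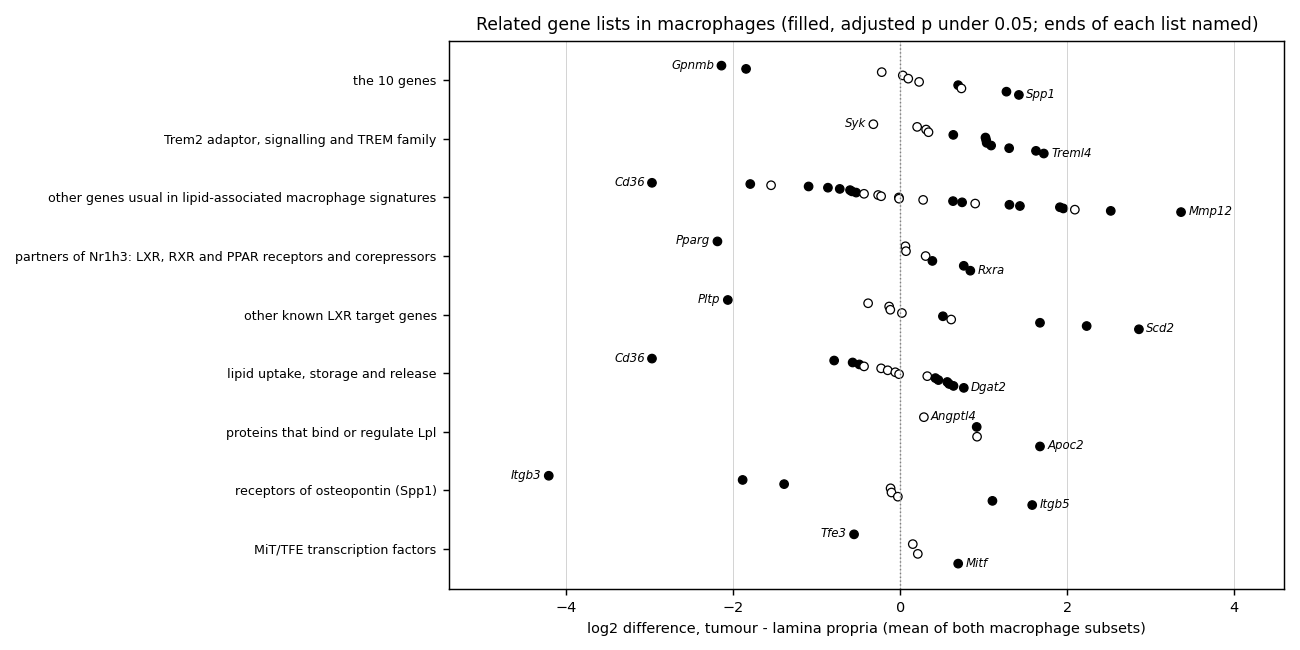
Log2 difference between tumour and lamina propria in the mean of both macrophage subsets (horizontal axis) for the genes of each list (vertical axis); filled points passed adjusted p under 0.05 and the end genes of each list are named. The Trem2 adaptor and TREM family list lies mostly right of 0, while the 10 genes and the other lipid-associated macrophage genes spread on both sides.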

How the data were processed

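RNA from sorted colon myeloid cells was sequenced after SMARTSeq v2 amplification. Per the labels and the study's methods the authors aligned paired reads to GRCm38 with STAR 2.3, counted them per GENCODE gene with featureCounts 1.5, left out genes with few reads in all populations and deposited log2 RPKM. The values' steps gave back whole reads for 100% of 415224 values (within 0.01 reads, after a prior of 0.25 reads), which gave the depths. The library sizes implied by the deposited log2 values were 0.466 to 0.483 of the summed reads on genes in tumour neutrophils, 0.63 to 0.682 in lamina propria neutrophils and 0.981 to 1.51 in the other groups, so levels of neutrophils depend most on the authors' scaling. The strand setting of the counting is not given in the sources used here. Symbols and positions came from GENCODE M21.

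Genes with a mean of at least 1 RPKM in some group were tested with limma 3.58.1 (R 4.3.3; trended variance, 1 fit of 8 group means over 24 libraries, Benjamini-Hochberg adjustment), after a test on simulated data. The mean of both macrophage subsets weighs them equally. Alternatives were other offsets (1 and 0.1), no filter or a mean of 5 RPKM, quantile and median scaling, only the groups compared, array weights, a replicate block, voom on the recovered reads (which called 2943 higher and 2780 lower genes for tumour against lamina propria in the mean of both macrophage subsets), leaving out each library, and, chosen after seeing the data, library sizes as summed reads. Figures were drawn with matplotlib from the same values.

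The 10 genes and all lists were chosen with earlier results of these data known. All 10 genes are named. Of each related list, the 2 largest rises and 2 largest falls that passed are named for the mean of both macrophage subsets, with the partners Tyrobp, Cd44, Gpihbp1, Nr1h2 and Rxra whatever their change and a few other comparisons of the same genes. A single gene that this rule names is not reported here. Genes most like Trem2, Gpnmb and Spp1 are the 5 with the highest Pearson r, without predicted genes.

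The pool number is the Roman numeral in the labels, which the titles of the tumour libraries call a donor. The study describes pooled cells of several mice, so what a donor stands for is not settled. Libraries of 1 tissue with the same number were taken to come from the same pool. On that assumption the number was used as a block within tissue. Across tissues the mice differ, so tumour against lamina propria cannot be blocked by a fixed term. Over 29 pairs of libraries with the same tissue and pool number the correlation of deviations from group means ran from -0.066 to 0.25 (median 0.017, 5 over 0.1).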

Additional observations from a re-analysis of the deposited data

Results flagged for a closer look

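The tissue difference of 3 genes differed between macrophages (mean of both subsets) and monocytes by the test of that difference itself, which flagged them. Fabp5 differed by 2.13, Gpnmb by 1.88 and Lgals3 by -1.55 on the log2 scale, with adjusted p = 0.00913, 0.00964 and 0.00266. All 3 passed in every alternative run.

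Fabp5 and Abca1 were flagged because all pools of one population moved one way and all pools of another the opposite way. Fabp5 was higher in tumours in MHCIIhi macrophages (0.82) and lower in monocytes (-1.40). Abca1 was lower in tumours in MHCIIhi macrophages (-0.30) and neutrophils (-1.16) and higher in monocytes (0.34). These 3 pairs of single populations were not tested against each other. The difference of Abca1 between macrophages (mean of both subsets) and monocytes was tested and did not pass (-0.56, adjusted p = 0.079).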

How the results depend on the processing

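Of 130 differences (10 genes in 13 comparisons) 49 passed the test, and 32 of these passed in every alternative run. None of the 49 changed sign in any alternative. The 32 included Gpnmb and Lgals3 in tumour macrophages, Gpnmb in tumour monocytes, Abca1 and Abcg1 in tumour neutrophils, and Trem2, Apoe, Gpnmb and Lpl in macrophages against monocytes. Another 23 differences that did not pass did so in some alternative. The cause of these changes was not tested.

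The count of genes that passed moved as follows. On the groups compared alone it was 2 of 10 in place of 4 for MHCIIlow macrophages (tumour against lamina propria), 3 in place of 5 for the mean of both subsets, 1 in place of 3 for monocytes and 0 in place of 1 for MHCIIlow against MHCIIhi macrophages in tumours; those fits have fewer libraries. For that last comparison it was 2 with an offset of 1 or 0.1, a mean of 5 RPKM, quantile scaling, a random replicate block, voom or summed reads, and 3 with array weights or a fixed replicate block, with Lgals3 added in each of these and Spp1 in those with 3. For the same comparison in lamina propria it was 3 with an offset of 1 or voom, 2 with array weights, and 0 with the fixed replicate block or summed reads. For the difference of tissue differences it was 1 between the subsets with voom (Gpnmb), and 5 between macrophages and monocytes with array weights. The replicate block changed the count by over 1.5 times in no other comparison. With the fixed replicate block Nr1h3 in tumour macrophages against monocytes was 0.71 (adjusted p = 0.124).

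Leaving out 1 library at a time gave 3 to 6 genes for tumour against lamina propria in the mean of both macrophage subsets, 1 to 3 for monocytes, 0 to 2 for MHCIIlow against MHCIIhi macrophages in each tissue, 0 to 1 for the difference of tissue differences between subsets and 3 to 5 for that between macrophages and monocytes.

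Differences that did not pass changed sign in some fits. For tumour against lamina propria, Abcg1 in the mean of both macrophage subsets was -0.030 with median centring and -0.056 with array weights. In neutrophils quantile scaling gave Gpnmb 0.073, Spp1 -0.074 and Lgals3 -0.14, median centring gave Gpnmb 0.14, and summed reads gave Apoe -0.33, Fabp5 -0.36 and Lgals3 -0.39. For MHCIIlow against MHCIIhi macrophages in tumours, Apoe was 0 with quantile scaling, Fabp5 -0.034 with median centring and Abcg1 0.032 with summed reads. In lamina propria quantile scaling gave Apoe 0.28 and Spp1 0.099, and Spp1 was 0.37 with the fixed replicate block and 0.19 with summed reads. For macrophages against monocytes in lamina propria Abcg1 was 0.25 with quantile scaling, 0.050 with array weights, 0.022 with the fixed replicate block and 0.10 with summed reads, and in tumours Abca1 was 0.11 with quantile scaling and 0.079 with summed reads. For neutrophils against monocytes in tumours Fabp5 was 0.060 with quantile scaling and 0.32 with median centring, Lgals3 0.32 with median centring and Abcg1 -0.62 with summed reads. For the difference of tissue differences between subsets Apoe was -0.28 with quantile scaling and -0.029 with the fixed replicate block, and Fabp5 0.027 with voom.

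Leaving out 1 library changed the sign of other differences that did not pass. For tumour against lamina propria in MHCIIlow macrophages, Trem2 ran from -0.27 to 0.14, Abca1 from -0.26 to 0.056 and Abcg1 from -0.043 to 0.52. In the mean of both subsets Trem2 ran from -0.0029 to 0.20 and Abcg1 from -0.14 to 0.15. In neutrophils Apoe ran from -0.15 to 0.46, Gpnmb from -0.28 to 0.044, Fabp5 from -0.093 to 0.47 and Lgals3 from -0.088 to 0.22. For MHCIIlow against MHCIIhi macrophages in tumours Apoe ran from -0.57 to 0.059, Fabp5 from -0.28 to 0.21 and Abcg1 from -0.44 to 0.12, and in lamina propria Spp1 from -0.82 to 0.49 and Fabp5 from -0.17 to 0.79. For macrophages against monocytes in lamina propria Abcg1 ran from -0.15 to 0.065, and for neutrophils against monocytes in tumours Lgals3 ran from -0.29 to 0.013 and Fabp5 from -0.49 to 0.24. The difference of tissue differences of Fabp5 between subsets ran from -0.79 to 0.18.

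With 3 pools a group the 95% intervals of the tumour differences in macrophage subsets were widest for Lpl (0.72 to 3.38 in the MHCIIlow subset). Trem2, Lpl and Nr1h3 in neutrophils rest on as few as 6, 14 and 12 reads a library.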

Other observations

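Trem1, a TREM family receptor that activates neutrophils and monocytes, had an order across cell types opposite to that of Trem2. It was higher in neutrophils than in monocytes by 2.89 in lamina propria and 3.14 in tumours and lower in macrophages than in monocytes (log2 differences of -3.73 and -3.29). Trem1 rose in tumour neutrophils by 1.12. Tyrobp, the adaptor that both receptors share, was also higher in neutrophils than in monocytes, by 2.37 in lamina propria and 2.08 in tumours, where Trem2 was nearly absent.

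Olr1, a receptor for oxidised lipoprotein, rose in tumour monocytes by 3.44 and in tumour neutrophils by 2.78, with mean levels of 9.44 and 100 RPKM in lamina propria and tumour monocytes. In MHCIIhi macrophages the means were 2.26 and 1.89 RPKM. In the test of the difference between macrophages and monocytes, the tissue difference of Olr1 was -3.59. Among the osteopontin receptors Itga9 was higher in macrophages than in monocytes, by 3.83 in lamina propria and 4.92 in tumours, and Itgb3 was higher in neutrophils than in monocytes, by 5.90 and 6.43.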
